A study of Mus musculus with 6 samples.

Results

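The genes described here are 10 genes of the pericentral Wnt programme of the liver, *Glul*, *Lgr5*, *Axin2*, *Rnf43*, *Znrf3*, *Tbx3*, *Slc1a2*, *Rhbg*, *Ctnnb1* and *Apc*, taken by symbol from a table that compares KO with WT liver. All 10 were found among its 16123 genes, and all had a mean of the WT and KO values of at least 10. The study sequenced poly-A RNA from livers of 2-month-old male mice after 4 weeks on a purified chow diet and a fast of 16 h. WT mice were C57BL/6Rj, and KO mice (C57BL/6JRj-Txndc5<em2Mdnp>/Ciba) lacked exon 3 of *Txndc5*, which codes for an endoplasmic reticulum disulfide isomerase, in every tissue. The KO line descended from 1 founder made by CRISPR/Cas9, and the mice of both genotypes were born of heterozygous crosses. Each genotype gave 3 libraries, each of RNA pooled from 3 mice, so that the spread between libraries is a spread between pools.

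Hepatocytes around the central vein receive Wnt ligands and R-spondins from the neighbouring endothelial cells. Wnt binding to a Frizzled receptor with LRP5 or LRP6 halts the complex of APC, AXIN and GSK3 that marks beta-catenin (*Ctnnb1*) for destruction, and beta-catenin then activates genes together with TCF factors. LGR receptors and R-spondins remove the ligases RNF43 and ZNRF3, which would otherwise take Frizzled off the cell surface. In liver this signal is known to keep glutamine synthetase (*Glul*) and ammonium and glutamate transporters in the cells next to the central vein, while urea synthesis from ammonia prevails near the portal vein.

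RefSeq windows of the 250 bases before a gene start (GRCm38.p6, sense strand, 5′ to 3′) were found for 5 of the 10 genes, *Glul*, *Slc1a2*, *Ctnnb1*, *Rnf43* and *Axin2*. The windows of the glutamine synthetase gene, of the glutamate transporter gene and of the feedback target *Axin2* are shown because these genes are classical readouts of the pathway, and capitals mark a match on either strand to the letters CTTTGAA, to CTTTGAT, to CTTTGTA or else to CTTTGTT, a motif usually given for TCF factors.
*Glul*, chr1:153899679-153899928: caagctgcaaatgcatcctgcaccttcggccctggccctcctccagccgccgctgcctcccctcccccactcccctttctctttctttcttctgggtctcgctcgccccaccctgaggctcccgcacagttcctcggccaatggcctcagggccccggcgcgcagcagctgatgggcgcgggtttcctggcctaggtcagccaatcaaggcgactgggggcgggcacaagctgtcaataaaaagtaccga
*Slc1a2*, chr2:102706188-102706437: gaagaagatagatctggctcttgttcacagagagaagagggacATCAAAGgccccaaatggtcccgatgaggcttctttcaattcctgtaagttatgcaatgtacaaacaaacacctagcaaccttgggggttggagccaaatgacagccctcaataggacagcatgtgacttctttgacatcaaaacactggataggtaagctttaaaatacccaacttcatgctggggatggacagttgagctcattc
*Axin2*, chr11:108920099-108920348: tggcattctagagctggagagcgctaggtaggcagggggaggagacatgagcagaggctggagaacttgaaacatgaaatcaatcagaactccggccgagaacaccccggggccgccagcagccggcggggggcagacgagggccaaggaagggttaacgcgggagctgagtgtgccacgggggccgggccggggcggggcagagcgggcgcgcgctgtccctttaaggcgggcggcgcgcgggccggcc
Of the 5 genes, *Slc1a2* alone held a match, on the opposite strand and 207 bases before the start. Its window lies inside the GENCODE gene, before a RefSeq start that is not the first GENCODE start. One of these matches was present in 4874 of 32851 windows of the same length (14.8%), so a match describes letters and not a bound site.

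*Txndc5* itself was listed at 2697 for WT and at 90.8 for KO, 29.7-fold lower. The libraries held between 44040160 and 46050030 clean reads, of which 91.63% to 93.66% mapped, and ribosomal RNA made up 0.26% to 0.69%. The deposited gene table gives 1 value per genotype over its 3 libraries, on the scale of reads divided by size factors, so most of the 10 genes have no spread and no test, and their ratios describe the combined values alone. Ratios of these values are shrunken toward 0, most for weakly expressed genes. For *Rspo3* the log2 ratio was -0.76 in these values and -0.99 in the reads per library given below. Genes were counted as past the threshold where the log2 of KO over WT reached 0.5 in size. Of the 11367 genes whose mean value reached 10, 1180 were past it (10.4%), 282 higher in KO (2.48%) and 898 lower in KO (7.9%). When the ratios were centred on their median of -0.05, the split was 390 higher and 755 lower. *Alb* and 4 further hepatocyte markers were listed (*Tf* was not). *Alb* had the values 1329550 and 1332580 in WT and KO, but the 4 further markers were lower in KO. Their log2 ratios were -0.40 (*Apoa1*), -0.52 (*Apob*), -0.26 (*Ttr*) and -0.15 (*Serpina1c*).

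None of the 10 genes passed the threshold of 0.5, beside 10.4% of the 11367 genes, so this count is no result about the 10 genes. Their log2 ratios ran from -0.26 (*Apc*) to 0.45 (*Glul*) with a median of 0.12, beside a median of -0.05 over the 11367 genes. For 6 genes the KO value was above the WT value, namely *Glul*, *Slc1a2*, *Rhbg*, *Znrf3*, *Ctnnb1* and *Axin2*, and for 4 it was below, namely *Rnf43*, *Lgr5*, *Tbx3* and *Apc*. Over all 11367 genes, 42.3% had a KO value above the WT value. The glutamine synthetase gene and the transporter genes gave the 3 highest ratios of the 10, and the genes coding for parts of the signalling route lay on both sides of 0.

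**Figure D1:**
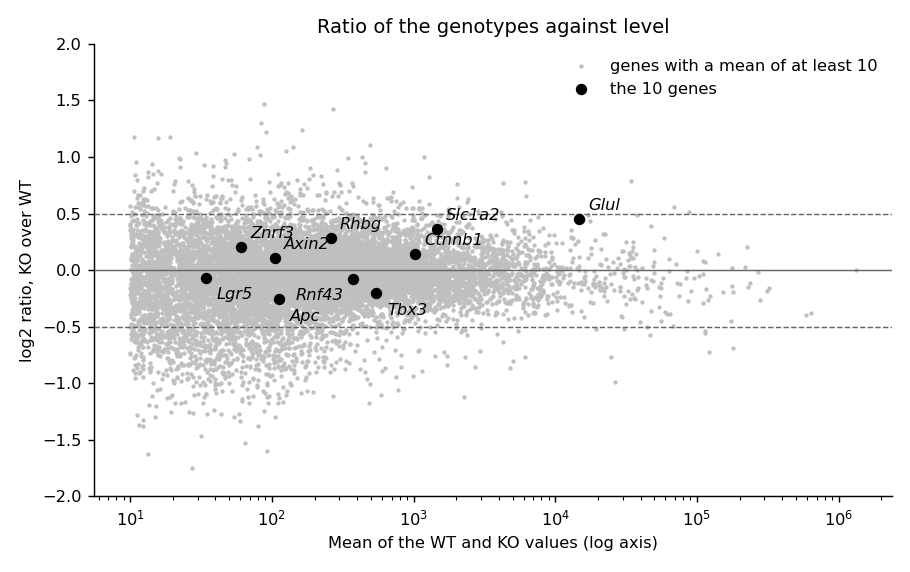
Log2 ratio of the KO over the WT value of each gene against the mean of both values (log axis), for the 11367 genes with a mean of at least 10 (grey) and the 10 genes (black); dashed lines mark 0.5 in size, and 4 genes lie beyond the axis limit of 2. All 10 black points sit between the dashed lines, with *Glul* the highest at 0.45.

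The enzyme and the transporters had the 3 highest ratios, and *Glul* and *Slc1a2* also the highest levels. *Glul* (chromosome 1, 153899944 to 153909723, plus strand, GRCm38), whose product joins ammonia to glutamate, stood at 12521 in WT against 17099 in KO, a log2 ratio of 0.45 or 1.37 times the WT value. Among 1765 genes whose mean value reached 1000, 42 had a higher ratio, and of all 11367 genes 400 did (3.52%), while 3.68% of the 1765 genes were past 0.5 in either direction. *Slc1a2* (chromosome 2, 102658659 to 102790784, plus strand), the glutamate transporter GLT-1, had 1270.25 in WT against 1637 in KO, a log2 ratio of 0.37. *Rhbg* (chromosome 3, 88242874 to 88254709, minus strand), an ammonium transporter of the Rhesus family, had 235 in WT against 286 in KO, a log2 ratio of 0.28. All 3 products act where ammonia and glutamate are taken up and joined next to the central vein, and each gene had the higher value in KO. These are combined values without a known spread, so a difference beyond the variation between pools was not tested. In bulk liver, the number of perivenous cells and the RNA per such cell also cannot be told apart.

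Among the genes of signal reception and its feedback, the values of the genotypes were closer. *Lgr5* (chromosome 10, 115450311 to 115587780, minus strand), a receptor for R-spondins, had 35.2 in WT against 33.6 in KO, a log2 ratio of -0.07. *Rnf43* (chromosome 11, 87662722 to 87735539, plus strand) had 386 in WT against 367 in KO, a log2 ratio of -0.07, and *Znrf3* (chromosome 11, 5276324 to 5444847, minus strand) had 56.8 and 65.2, a log2 ratio of 0.20. RNF43 and ZNRF3 are related ligases with the same substrate, and their ratios were on opposite sides of 0. The direction of *Znrf3* depended on a single library, as given below.

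The intracellular part of the route held *Ctnnb1* (chromosome 9, 120929216 to 120960507, plus strand), which codes for beta-catenin, with 976 in WT and 1079.9 in KO and a log2 ratio of 0.15. *Apc* (chromosome 18, 34220924 to 34322552, plus strand), a scaffold of the destruction complex, had 123 in WT against 103 in KO, a log2 ratio of -0.26 and the lowest of the 10. *Axin2* (chromosome 11, 108920349 to 108950783, plus strand), both a scaffold of that complex and a feedback target of the pathway, had 101 in WT against 109 in KO, a log2 ratio of 0.10. *Tbx3* (chromosome 5, 119670669 to 119684724, plus strand), a T-box transcription factor of pericentral hepatocytes that acts as a repressor, had 585 in WT against 508 in KO, a log2 ratio of -0.20. In the combined values *Glul*, *Axin2* and *Znrf3*, on the list of Wnt target genes, were higher in KO and *Tbx3*, *Rnf43* and *Lgr5* lower. *Slc1a2* (0.37) and *Rhbg* (0.28), which are not on that list but also depend on the signal in liver, were higher in KO. Whether the targets share a direction is not settled by these values. The signs of *Lgr5* and *Znrf3* turned when single libraries were left out, as given below, and the rest have no test.

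Per kilobase of gene length, the level (the mean of the WT and KO values) covered a wide range. *Glul* stood at 5248 per kb, followed by *Slc1a2* at 462, *Ctnnb1* at 290.5, *Rhbg* at 136, *Tbx3* at 115 and *Rnf43* at 86.8. The level of *Glul* was 11.3 times that of *Slc1a2* and 719.7 times that of *Lgr5*. *Axin2* had 24.5 per kb, *Apc* 9.05, *Znrf3* 9.01 and *Lgr5* 7.29, so that *Rnf43* had 9.64 times the level per kb of its relative *Znrf3*. *Apc* and *Znrf3* changed places between the genotypes (9.87 and 8.38 per kb in WT, 8.24 and 9.63 in KO), as did *Rhbg* and *Tbx3* by a small margin (122.7 and 122.9 per kb in WT, 149 and 107 in KO). The spread over libraries is not known for the 8 genes without reads per library. *Apc*, *Rhbg* and *Tbx3* are among them, so neither this order nor these changes of place were tested.

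**Figure D2:**
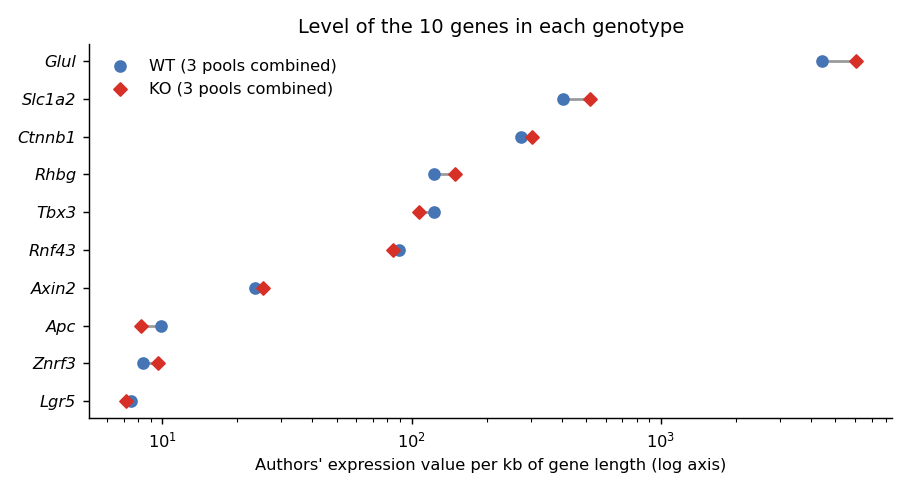
Authors' expression value per kb of gene length (log axis) for the 10 genes, with WT as circles and KO as diamonds, each point combining 3 pools. *Glul* stands at the top with 4437 per kb in WT and 6059 in KO, and *Lgr5* at the bottom with 7.46 and 7.12.

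Reads are whole numbers, so for weakly expressed genes the 15-digit values fixed the reads of each library, and 8063 of 8081 genes with a sum of up to 400 normalized reads over the 6 libraries were resolved in this way. Of the 10 genes, *Lgr5* and *Znrf3* were resolved and 6 had too many reads to enumerate. *Axin2* and *Apc* kept several possible sets. For *Axin2*, 8 of 14 sets had the deposited direction and the genotypes overlapped in all 8. For *Apc*, 15 of 21 sets had it and the genotypes overlapped in 13 of them.

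No pool number belongs to a recovered library, and libraries are numbered within a genotype by size factor, which was 1.31, 1.04 and 0.886 in KO libraries 1 to 3 and 1.22, 0.879 and 0.818 in WT libraries 1 to 3. WT library 1 stood apart, with the highest normalized value of the 6 libraries in 40.0% of the 3307 resolved genes with a sum between 60 and 400, beside 9.74% to 14.7% for each of the others. The log2 ratios of normalized reads below are therefore also given without it.

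*Lgr5* had 23, 25 and 52 reads in KO libraries 1 to 3 and 56, 13 and 37 reads in WT libraries 1 to 3. Divided by the size factors these were 17.5, 24.1 and 58.7 normalized reads in KO and 45.7, 14.8 and 45.2 in WT. The highest library was a KO library and the lowest a WT library, and the genotypes overlapped. The means were 33.5 ± 22.1 in KO and 35.3 ± 17.7 in WT (SD, n = 3 pools), a log2 ratio of the means of -0.08 with the largest p the two-sided exact permutation test can give (p = 1, smallest possible 0.1). With limma the log2 difference was -0.10 (SE 0.606, adjusted p = 0.999). The direction depended on single libraries, being 0.16 without WT library 1, 0.23 without KO library 1, 0.11 without KO library 2 and 0.15 without WT library 3, and the log2 ratio was -0.76 without KO library 3 and -0.44 without WT library 2.

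*Znrf3* had 133, 58 and 36 reads in KO libraries 1 to 3 and 86, 42 and 41 reads in WT libraries 1 to 3. The normalized reads were 101.3, 56.0 and 40.6 in KO and 70.2, 47.8 and 50.1 in WT. KO libraries held both the highest and the lowest value. The means were 66.0 ± 31.6 in KO and 56.0 ± 12.3 in WT (SD, n = 3 pools), a log2 ratio of the means of 0.24 (two-sided exact permutation test, p = 0.8). With limma the log2 difference was 0.15 (SE 0.459, adjusted p = 0.999). Without KO library 1 the log2 ratio was -0.21, without KO library 3 it was 0.49 and without WT library 1 it was 0.43. Neither gene differed between the genotypes by more than the spread between pools, and at this depth and with 3 pools a difference of the size of the *Glul* ratio was not detectable for them, since each standard error exceeded it.

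**Figure D3:**
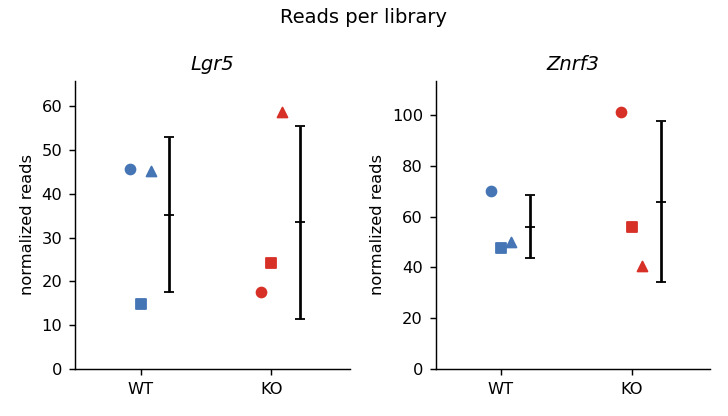
Normalized reads of *Lgr5* and *Znrf3* in each recovered library, with circles, squares and triangles for libraries 1, 2 and 3 of each genotype and black bars for the mean ± SD of 3 libraries. The genotypes overlap for both genes, with means of 35.3 (WT) and 33.5 (KO) for *Lgr5* and of 56.0 and 66.0 for *Znrf3*.

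Over all 3307 resolved genes of this range, limma called 1 gene at an adjusted p under 0.05 (0.0302%), *Moap1*, and 63 genes had an unadjusted p under 0.05. The genotypes did not overlap in 189 of the 3307 genes (5.72%), and neither *Lgr5* nor *Znrf3* was among them. By the root mean square difference of centred log2 normalized reads over the 6 libraries, the profiles most like that of *Lgr5* among 32 genes of the lists belonged to *Tle2* (0.57) and *Slc1a4* (0.68), with a median of 0.90 over the 32. Those most like *Znrf3* belonged to *Bcl9* (0.33) and *Tle4* (0.34), with a median of 0.68. All of these profiles share the 6 libraries and their size factors.

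Of 25 Wnt ligands, R-spondins and genes of ligand export, 14 were listed and 7 had a mean value of at least 10, with a median log2 ratio of -0.26. *Wnt4* and *Rspo3* were past the threshold, both lower in KO (2 of 7, beside 7.9% over all genes for that direction), and none was past it in the other direction. *Rspo3*, the R-spondin known from central vein endothelium, had 35, 13 and 13 reads in KO libraries 1 to 3 and 56, 37 and 16 in WT libraries 1 to 3. Its normalized reads were 26.7, 12.6 and 14.7 in KO and 45.7, 42.1 and 19.6 in WT, and KO library 1 lay above WT library 3. The means were 18.0 ± 7.61 in KO and 35.8 ± 14.2 in WT (SD, n = 3 pools), a log2 ratio of -0.99 (-0.78 without WT library 1) with p = 0.2 in the two-sided exact permutation test. With limma the log2 difference was -0.94 (SE 0.490, adjusted p = 0.999), so the lower *Rspo3* level did not pass.

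*Wnt4*, a ligand with roles outside the beta-catenin route as well, had 38.1, 40.5 and 46.3 normalized reads in KO and 44.9, 121.7 and 53.8 in WT. The WT mean of 73.5 ± 42.0 rested on WT library 2, against 41.6 ± 4.21 in KO (SD, n = 3 pools), and the log2 ratio of -0.82 became -0.25 without that library and -1.08 without WT library 1. The exact permutation test, two-sided, gave p = 0.2. *Wnt2* and *Wnt9b*, ligands known from sinusoidal and central vein endothelium, were looked at for that role with their values in view. *Wnt2* had 48.8 ± 9.13 normalized reads in KO and 48.2 ± 3.56 in WT (exact permutation test, two-sided, p = 1, n = 3 pools), and *Wnt9b* had 21.0 ± 10.6 and 15.6 ± 8.97 (p = 0.5 in the same exact test). The log2 ratio of *Wnt2* was 0.02, or 0.03 without WT library 1 and -0.14 without KO library 2. The log2 ratio of *Wnt9b* was 0.42, but 0.05 without WT library 1, -0.01 without KO library 2 and 0.90 without WT library 3, so single libraries set it. *Wnt9a*, chosen after its values were seen, had 8, 23 and 10 reads in KO and 7, 5 and 2 in WT. Its normalized reads of 6.10, 22.2 and 11.3 in KO did not overlap with 5.72, 5.69 and 2.45 in WT, but its sum of 53.4 lay under the limit of 60 for the main tests. With limma on genes with sums from 20, the log2 difference of *Wnt9a* was 1.24 (SE 0.563, adjusted p = 0.999). Its log2 ratio of normalized reads was 1.52, beside 0.86 in the combined values. That ratio was 1.70 without WT library 1 and 0.91 without KO library 2, values added after the data were seen. The ligand genes of this liver thus had values on both sides of the comparison, and none passed a test.

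**Figure D4:**
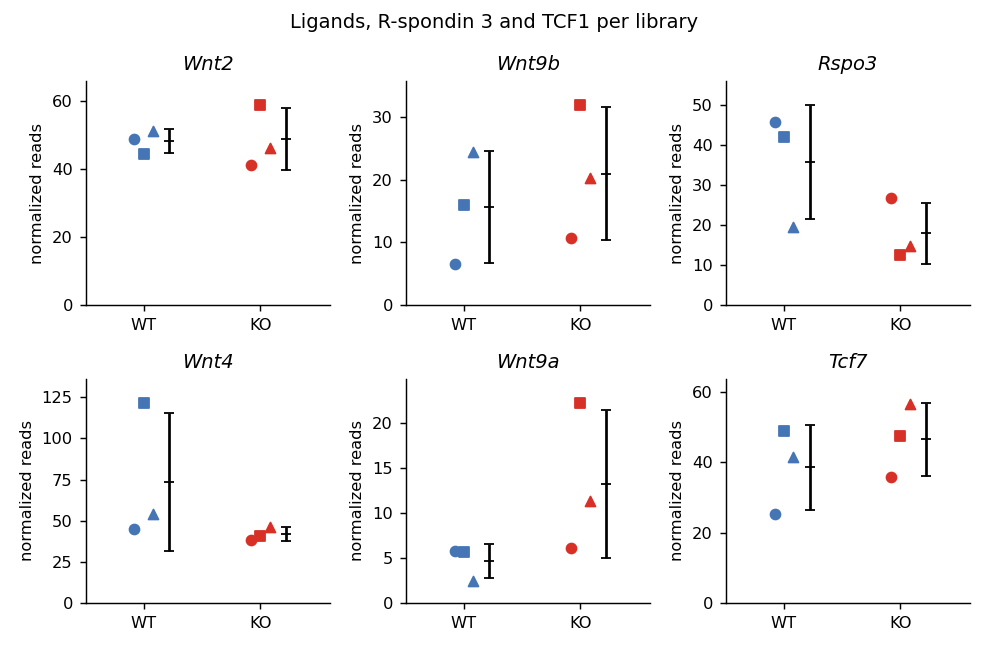
Normalized reads of 5 ligand genes and *Tcf7* (TCF1) in each recovered library, with circles, squares and triangles for libraries 1, 2 and 3 of each genotype and black bars for the mean ± SD of 3 libraries. *Rspo3* averages 35.8 in WT and 18.0 in KO with overlapping libraries, and the WT mean of *Wnt4* is raised by 1 library at 121.7.

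Among 18 Wnt receptors, 12 had a mean value of at least 10 and their median log2 ratio was 0.23. *Fzd4* (96.3 in WT and 164 in KO, 0.77), *Fzd7* (130 and 205, 0.66) and *Fzd1* (68.5 and 106, 0.63) were past the threshold with the higher value in KO, a share of 3 of 12 beside 2.48% over all genes for that direction. These Frizzled genes code for the receptors that RNF43 and ZNRF3 remove at the protein level. For *Fzd1*, 3 sets of reads remained possible, of which 2 had the deposited direction, with overlapping genotypes in 1 of them. *Fzd4* and *Fzd7* had too many reads to enumerate, so none of the 3 has a test. The co-receptor genes *Lrp5* and *Lrp6* had log2 ratios of -0.26 and -0.18, and *Lgr4*, the relative of *Lgr5* that hepatocytes express broadly, had 0.05 and a level of 45.5 per kb beside 7.29 for *Lgr5*.

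No gene passed the threshold in the lists of antagonists and receptor-removing ligases (7 genes with a mean of at least 10, median 0.06), destruction complex and regulators (17 genes, median 0.15), nuclear effectors (11 genes, median 0.15) and Wnt target genes (14 genes, median 0.10). Over all genes with a mean of at least 10, 10.4% passed it, so these counts are no result about such short lists. *Notum*, which codes for a secreted Wnt deacylase and is a target of the pathway, had 581 in WT against 605 in KO, a log2 ratio of 0.06. *Gsk3a* (-0.07) and *Dvl1* (0.07), the most abundant genes of the destruction complex list, lay close to 0, as did *Bcl9l* (-0.09) among the nuclear effectors. *Tcf7*, also looked at with its values in view, had 46.5 ± 10.3 normalized reads in KO and 38.6 ± 12.1 in WT (exact permutation test, two-sided, p = 0.5, n = 3 pools). Its log2 ratio of 0.27 became 0.04 without WT library 1 and 0.48 without WT library 2. The lists share members with one another and with the 10 genes, so their medians are not separate pieces of evidence.

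**Figure D5:**
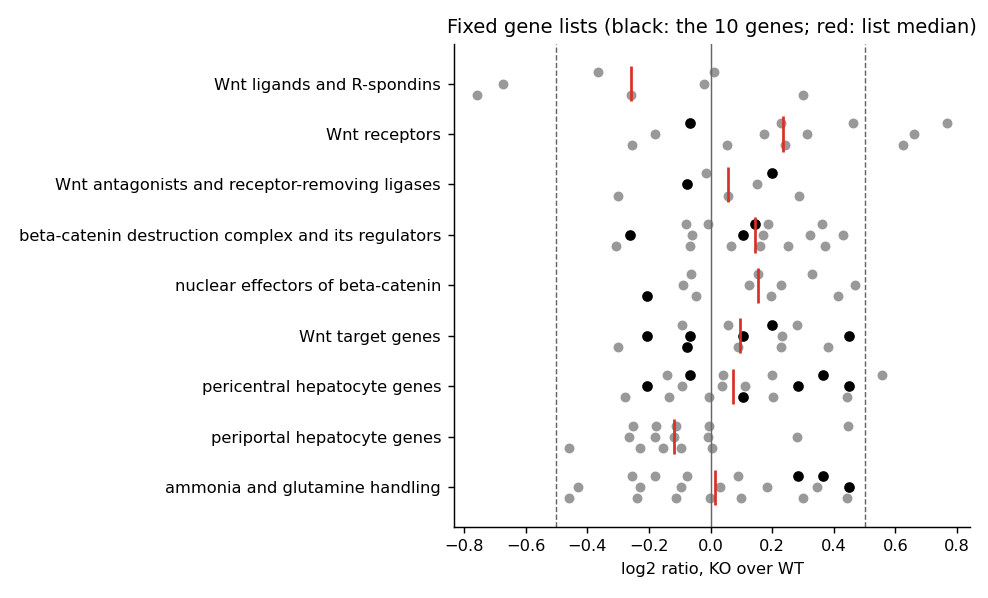
Log2 ratio of KO over WT (x axis) of each gene with a mean value of at least 10 in 9 gene lists (rows), with the 10 genes in black, the median of each list as a red line and dashed lines at 0.5 in size. Points past the dashed lines occur in 3 lists, *Wnt4* and *Rspo3* among ligands, *Fzd1*, *Fzd4* and *Fzd7* among receptors and *Slc22a3* among pericentral genes.

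In the pericentral hepatocyte list, 11 of 18 genes had a KO value above the WT value and the median log2 ratio was 0.07. In the periportal list 3 of 15 did and the median was -0.12. Over all genes with a mean of at least 10, 42.3% did and the median was -0.05. The 11 include *Glul*, *Slc1a2*, *Rhbg* and *Axin2*, and a difference between the lists was not tested. *Slc22a3*, an organic cation transporter gene with 88.8 in WT and 131 in KO (0.56), was the 1 pericentral gene past the threshold, and no periportal gene was past it. These counts of 1 of 18 and 0 of 15 stand beside 10.4% over all genes and are no result about the lists. *Cyp2e1*, the most abundant pericentral gene, had 0.20. *Oat*, which codes for ornithine aminotransferase and was named after its values were seen, had 13340 in WT against 18135 in KO, a log2 ratio of 0.44 close to that of *Glul*. *Cyp1a2* and *Gulo*, pericentral genes chosen in the same way, had -0.01 and 0.04. The whole pericentral list ran from -0.28 (*Cyp27a1*) to 0.56 (*Slc22a3*), so its genes did not share the ratio of *Glul*. The periportal list ran from -0.46 (*Asl*) to 0.45 (*G6pc*), so a ratio near that of *Glul* occurred there as well.

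Of 20 ammonia and glutamine genes whose mean value reached 10, 10 had a KO value above the WT value, beside 42.3% over all genes. The median was 0.01. None was past the threshold, beside 10.4% over all genes, so this count is no result about the list. The 3 most abundant, all of the urea cycle, lay below 0, with *Cps1* at -0.10, *Ass1* at -0.23 and *Asl* at -0.46. *Gls2*, the liver glutaminase gene of the periportal side, which was named after its values were seen, had 7331 in WT and 6786 in KO (-0.11). The highest ratios of this list belonged to *Glul*, *Oat* and *Slc1a2*, and no test of the spread between pools was possible for them.

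Markers of other liver cells were read beside these results because *Lgr5*, *Rspo3* and the ligand genes can come from different cells. The summed value of the 7 endothelial markers was 2222 in WT and 2188 in KO. The median log2 ratio was 0.05, and their log2 ratios were -0.14 (*Stab2*), -0.35 (*Lyve1*), -0.04 (*Clec4g*), 0.11 (*Kdr*), 0.05 (*Cdh5*), 0.07 (*Pecam1*) and 0.61 (*Thbd*). *Thbd*, the thrombomodulin gene, had 50.3, 49.2 and 37.3 normalized reads in KO and 35.1, 17.1 and 29.3 in WT, with p = 0.1 in the two-sided exact permutation test (n = 3 pools), the smallest it can give, and an adjusted p of 0.999 with limma. It was the 1 of 33 tested genes of the lists and markers whose genotypes did not overlap, beside 5.72% of the 3307 genes. Its log2 ratio of normalized reads was 0.75, or 0.97 without WT library 1, a value added after the data were seen. The largest values in the marker sums were those of *Clec4g* (682 in WT and 663 in KO) and *Stab2* (628 and 571). The part of endothelial content in the lower *Rspo3* value was not tested.

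The hepatocyte marker list had a median log2 ratio of -0.26 over 5 listed genes, with *Apob* past the threshold at -0.52 and *Alb* at 0.00. *Apoa1* had -0.40, *Ttr* -0.26 and *Serpina1c* -0.15. Kupffer cell markers had a median of 0.05, with *Marco* (0.62) past the threshold. *Cd5l* had 0.46, *Vsig4* 0.11, *Timd4* -0.02, *Clec4f* -0.05 and *C1qa* -0.05. Stellate cell markers had a median of 0.04, with *Col1a1* (0.76) and *Col3a1* (0.56) higher and *Dcn* (-0.50) lower in KO. *Reln* had 0.17, *Pdgfrb* -0.08 and *Lrat* -0.44. Cholangiocyte markers had a median of -0.02, with *Epcam* (0.51, mean value 10.2) higher. *Spp1* had 0.37, *Sox9* -0.02, *Krt19* -0.28 and *Krt7* -0.32, and *Cftr* had a mean under 10. Over all genes, 10.4% were past the threshold. Of the lymphocyte markers 2 of 6 had a mean of at least 10, both with the lower value in KO. These were *Ptprc* (-0.65, past the threshold) and *Cd79a* (-0.48), while *Cd3e*, *Cd3g*, *Ms4a1* and *Nkg7* had a mean under 10. The 6 erythroid markers summed to 118830 in WT and 180430 in KO, with a median of 0.67. Past the threshold were 4 of them, beside 2.48% higher in KO over all genes. These were *Slc4a1* (1.47), *Hbb-bs* (0.79), *Hbb-bt* (0.78) and *Hba-a1* (0.56), and *Hba-a2* had 0.49 and *Alas2* 0.40. The part of these cells in the ratios of the 10 genes was not tested.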

How the data were processed

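Liver RNA of 3 WT and 3 KO pools was sequenced, and samples were grouped by their labels (WT pools 1, 2 and 5, KO pools 2, 3 and 4). The submitters' processing notes name HISAT2, StringTie, Cufflinks, GATK, Bowtie2 and RSEM, without versions, and the build mm10; the role of each is not given in the sources used here. For each of 16123 genes the authors deposited 1 expression signal per genotype, the scale being reads divided by DESeq2 size factors, with 3 libraries combined. The authors also deposited counts of clean reads and percent values for mapping and ribosomal RNA per library. Columns of the authors' log2 ratio, p-value, adjusted p-value and direction were not used, nor was the table of splicing events. The ratio of the 2 signals is shrunken toward 0, most for weakly expressed genes.

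The 10 genes and the gene lists were chosen with earlier results of these data known. The midpoint of a gene's 2 signals times 6 is its sum of normalized reads. The worth of 1 read in each library came from midpoints shared by at least 20 genes, and a library's genotype from which signal was the larger in those genes. All sets of whole reads that give a gene's sum within the rounding of the 15-digit values were enumerated, up to a sum of 400 for all genes and 700 for genes of the lists, and a gene was resolved where 1 set was left. The method was tested on simulated data. Reads recovered per library from sums up to 400 ranged from 84664 to 196805, a minor share of the sequenced reads, since only weakly expressed genes entered. Counting error is large for genes with few reads.

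Log2(normalized reads + 1) of genes with a sum between 60 and 400 was compared with limma 3.58.1 (R 4.3.3), Benjamini-Hochberg adjusted over all 3307 genes. Single genes were compared with two-sided exact permutation tests (all splits enumerated, NumPy 2.4.6), for which 3 against 3 libraries cannot give a p under 0.1. A count test planned for tables of reads per library was not used, since the table holds 1 value per genotype. Genes named are the 10 genes, *Txndc5*, list genes with a mean of at least 10 and a log2 ratio of at least 0.5 in size or otherwise the 3 most abundant of a list, all markers of a described cell type, and the 2 most similar profiles; others are said to be chosen after their values were seen. Positions came from GENCODE M21 (GRCm38) and sequences from RefSeq (GRCm38.p6). Alternatives were the pseudocount, the filters, the fold, centring, scaling by recovered totals, a covariate for the deepest library of each genotype and leaving out each library.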

Additional observations from a re-analysis of the deposited data

How the results depend on the processing

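Pseudocounts of 1 and 0.1 and centring on the median moved no log2 ratio of the 10 genes by more than 0.05, changed none of their signs and brought none past 0.5. The count of genes past the threshold was 102 with a log2 ratio of at least 1 in place of 0.5 (1180), and between 1145 and 1633 under the other filters and centring. The 1 gene called by limma was also the number called with a pseudocount of 0.5, with sums from 20 and with a term for the largest library, but leaving out each library gave 0 to 1, and 1 only without WT library 1. The number with an unadjusted p under 0.05 was 63, and between 26 and 152 when a library was left out, 116 of 4689 genes with sums from 20 and 242 with the term for the largest library; the cause was not tested. For *Lgr5* the log2 ratio of -0.08 turned to 0.14 when libraries were scaled by their recovered totals, and leaving out each library gave -0.76 to 0.23, with the sign turned without KO library 1 (0.23), KO library 2 (0.11), WT library 1 (0.16) or WT library 3 (0.15). For *Znrf3* the log2 ratio was 0.34 under that scaling and -0.21 to 0.49 without each library, with the sign turned without KO library 1 (-0.21). The median of the antagonist list moved from 0.06 to -0.04 with genes from a mean of 1, and the medians of the other 8 Wnt, zonation and ammonia lists kept their sign under that filter and under centring, while the median of the cholangiocyte markers moved from -0.02 to 0.03 when centred. A fit without 1 library assumes that the remaining pair of its genotype varies like the rest. No paired analysis was possible because WT and KO share only pool number 2 and the recovered libraries carry no pool number. For 8 of the 10 genes the spread between pools is not known, and the tests of *Lgr5* and *Znrf3* rest on 13 to 133 reads per library.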
